A study of Mus musculus with 8 samples.

Results

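The variable (V) segments of the T cell receptor alpha locus (Trav) and beta locus (Trbv) were described in RNA-seq of mouse regulatory T cells. Members were all genes whose symbol is Trav or Trbv followed by a number. The rule found 163 of the 55665 genes in the deposited tables, 128 Trav and 35 Trbv. For each library the share of a segment was its count divided by the summed Trav or summed Trbv count of that library.

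The cells were CD4+GFP+ nTreg cells, that is regulatory T cells taken by magnetic enrichment and flow sorting out of mouse spleen and lymph nodes and then cultured ex vivo. Every group came from RosaCas9/+ Foxp3gfp mice, which carry 1 Cas9 allele at the Rosa locus and a GFP reporter in Foxp3. The Foxp3 guide groups received sgFoxp3, a guide RNA against Foxp3, and the control guide groups received sgNC. Within each guide, cells were restimulated for 3 h with anti-CD3 and anti-CD28 antibodies, which trigger the T cell receptor (TCR) and its costimulator, or were mock-treated with DPBS and labelled 0 h. Each of the 4 groups had 2 libraries. The labels do not say whether these came from separate mice or cultures, so p-values below cover no more than library-to-library spread, part or all of which may be technical. How many guides or clones each culture held, and the age of the mice, are not given in the sources used here.

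A developing T cell assembles its receptor by joining 1 V segment of each chain to downstream segments and then to a constant region. The V segment encodes most of the variable domain, including the first 2 loops that contact the peptide-MHC complex and the start of the third, CDR3. A clone and its descendants keep the same V segments, so a culture taken over by few clones would express few V segments, while a polyclonal culture expresses many. Regulatory T cells selected in the thymus are normally polyclonal. Bulk RNA gives the expressed share of each segment. It does not pair alpha with beta chains, and the third loop, which tells clones with the same V segment apart, was not read.

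The Trav segments lie on chr14 between 52427928 and 53977678 (GRCm38), all on the plus strand, and comprise 108 V genes and 20 pseudogenes in 23 families. The Trbv segments lie on chr6 between 40891229 and 41558452 and comprise 22 V genes and 13 pseudogenes in 31 families. Trbv31 is the only Trbv segment on the minus strand and lies beyond the constant gene Trbc2, so that it joins by inversion of DNA. Part of the mouse alpha locus has been duplicated, and copies carry a d or n in their symbols. As a result 34 Trav transcripts were identical to another and 39 held no 50-base stretch of their own, whereas every Trbv transcript was mostly unique, with a median of 100% unique 50-base stretches. Values of single Trbv segments are therefore better resolved than those of single Trav segments, and Trav results are also given for merged near-identical segments.

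The germline 3′ coding ends of 7 Trbv segments are printed because the results below turn on them: Trbv2, Trbv31, Trbv19, Trbv4 and Trbv13-3 differed in share between guides at both times, and Trbv29 rose and Trbv16 fell on stimulation with both guides. Each is the last 90 coding bases of the V exon from GENCODE M21 on GRCm38. Capitals mark the last in-frame cysteine codon, the conserved cysteine that opens CDR3; the bases after it are where joining to the next segment begins. The windows are chr6:41047906-41047995 (Trbv2, plus strand), chr6:41557693-41557782 (Trbv31, minus strand), chr6:41178959-41179048 (Trbv19, plus), chr6:41059797-41059886 (Trbv4, plus), chr6:41130496-41130585 (Trbv13-3, plus), chr6:41271792-41271881 (Trbv29, plus) and chr6:41152141-41152230 (Trbv16, plus).
Trbv2: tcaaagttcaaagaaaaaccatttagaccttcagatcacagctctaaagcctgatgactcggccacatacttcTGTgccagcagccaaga
Trbv31: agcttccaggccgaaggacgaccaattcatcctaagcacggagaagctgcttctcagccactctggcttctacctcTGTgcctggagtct
Trbv19: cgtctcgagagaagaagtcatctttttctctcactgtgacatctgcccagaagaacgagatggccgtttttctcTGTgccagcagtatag
Trbv4: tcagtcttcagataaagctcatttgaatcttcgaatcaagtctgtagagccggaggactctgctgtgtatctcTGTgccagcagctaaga
Trbv13-3: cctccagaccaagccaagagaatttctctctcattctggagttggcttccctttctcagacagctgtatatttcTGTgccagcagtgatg
Trbv29: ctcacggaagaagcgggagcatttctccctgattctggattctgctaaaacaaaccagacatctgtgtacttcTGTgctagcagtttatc
Trbv16: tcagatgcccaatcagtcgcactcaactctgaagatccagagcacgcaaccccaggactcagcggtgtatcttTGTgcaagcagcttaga
In all 7 the cysteine codon was TGT, followed by 11 to 14 germline bases. The last germline bases are often trimmed during joining and are not read separately in gene-level counts.

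Total counts ran from 38729009 to 94807362 per library. As a check of the labels, Foxp3 itself had 6257 and 6080 counts in Foxp3 guide libraries at 0 h, against 34190 and 38050 in control guide libraries, and 3729 and 5903 against 30578 and 28527 at 3 h (log2 fold changes -3.13 and -3.19). Of the 163 members, 122 passed the filter on low counts and were tested, 100 Trav and 22 Trbv. The 41 that did not pass included 19 Trav and 12 Trbv pseudogenes and never exceeded 12.78 counts in a library. They held 0.274 to 0.582% of Trav counts and 0.0334 to 0.0815% of Trbv counts. Of all members, 14 Trav and 7 Trbv were at 0 in all 8 libraries. Levels and shares were tested with edgeR's quasi-likelihood test on the whole table of 16642 genes, and a segment was called at an adjusted p (Benjamini-Hochberg over all genes tested) below 0.05.

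All 8 libraries expressed broad alpha and beta repertoires, with no segment near dominance. For Trav, the largest share of any segment was 3.79 to 4.44%, and 24 to 26 segments together held 50% of the counts. The effective number of Trav segments, the number of equally used segments that would give the same Shannon entropy, was 77.6 and 76.3 in Foxp3 guide libraries and 75.5 and 75.0 in control guide libraries at 0 h. At 3 h it was 74.5 and 75.8 with the Foxp3 guide and 75.4 and 74.3 with the control guide. The guides overlapped at 3 h, and at 0 h both Foxp3 guide libraries were the higher, by 1.68 segments on average. That gap was 0.354 among segments with at least 10 counts in every library, and counted over families it turned round (-0.041).

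For Trbv, Trbv3 held the largest share of counts in every library, 10.4 to 13.3%, although by TPM share, which allows for length, Trbv13-2, Trbv5 or Trbv13-1 was the largest in 4 of the 8 libraries. In each library 6 or 7 segments held 50% of Trbv counts. The effective number of Trbv segments was 17.27 and 17.39 in Foxp3 guide libraries and 17.44 and 17.61 in control guide libraries at 0 h. At 3 h it was 16.4 and 16.5 with the Foxp3 guide and 16.7 and 16.8 with the control guide. Breadth at 3 h was lower than at 0 h with either guide, and lower with the Foxp3 guide than with the control guide at both times without overlap, by 0.20 segments at 0 h and 0.28 at 3 h. Counted over families, the 3 h gap turned to 0.04 families higher with the Foxp3 guide. These gaps are small beside the number of segments, and no test was made on breadth, which is a score over the members.

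The number of segments with at least 1 count was 103 to 109 for Trav and 23 to 27 for Trbv. Since it grows with depth, it was also computed for equal depth. At 3269 counts per library the expected number of Trav segments was 107 and 107 in Foxp3 guide libraries and 104 and 103 in control guide libraries at 0 h, and 103 and 104 against 106 and 104 at 3 h. At 5980 counts the expected number of Trbv segments was 24.7 and 24.8 against 24.2 and 25.2 at 0 h, and 23.5 and 24.0 against 23.0 and 23.0 at 3 h. Merging near-identical Trav segments into 93 units left 52.95 to 55.01 effective units in every library, and summing by family left 11.3 to 12.2 Trav and 13.6 to 14.2 Trbv families.

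**Figure D1:**
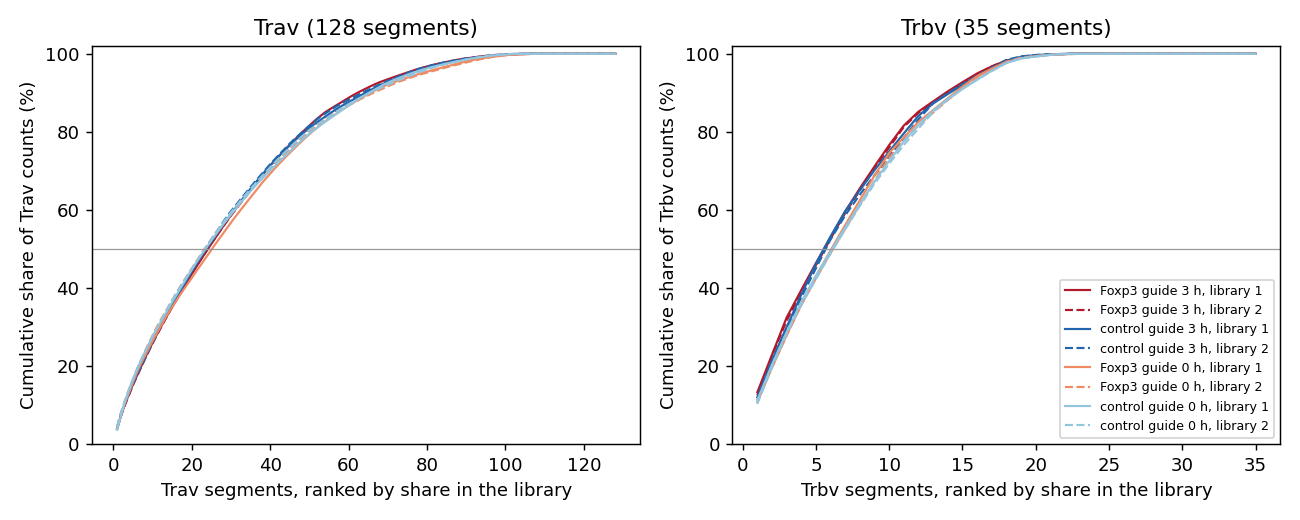
Cumulative share of Trav counts (left, %) and Trbv counts (right, %) against segments ranked by share within each library; lines are the 8 libraries, dashed for the library with number 2, and the grey line marks 50%. The curves nearly coincide, reaching 50% at 24 to 26 Trav and 6 or 7 Trbv segments.

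Segment use was uneven but similar from library to library. On the per-length scale (TPM shares, mean of 8 libraries), which allows segments to be ranked, Trbv3 led with 9.12% of Trbv TPM, followed by Trbv1 with 8.35%, Trbv13-1 with 8.16%, Trbv5 with 8.01% and Trbv13-2 with 7.60%. Trbv19, whose annotated transcript of 566 bases is the longest of the Trbv segments, had rank 3 by counts with 8.24% but rank 10 by TPM share with 4.56%. Trav4-4-dv10 led the alpha locus with 3.56% of Trav TPM, followed by Trav6-7-dv9 with 3.49% and Trav7-4 with 2.82%. All shares from here on are shares of counts, compared for the same segment between libraries.

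**Figure D2:**
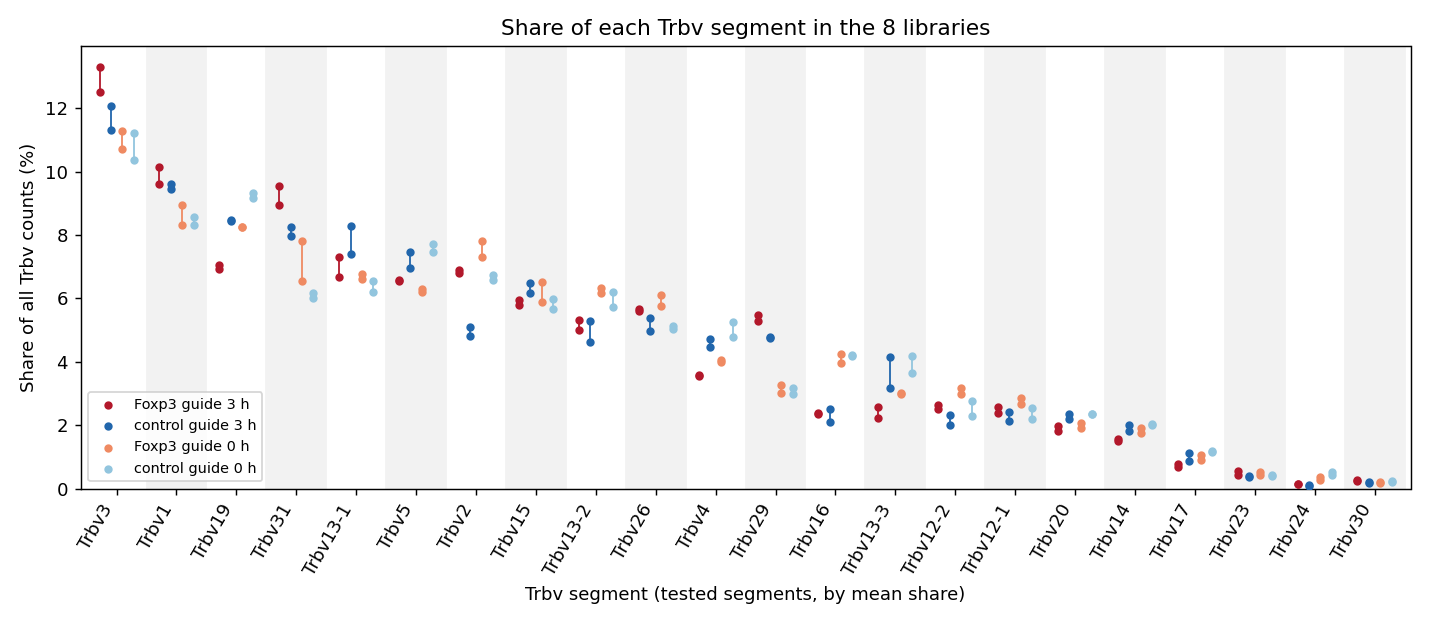
Share of all Trbv counts (%) for the 22 tested Trbv segments, ordered by mean share; points are libraries, the vertical line joins the 2 libraries of a group, and colours are groups. Trbv3 is highest in all 8 libraries, Trbv29 is higher and Trbv16 lower at 3 h with either guide, and Trbv2 is lowest in the control guide libraries at 3 h.

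Shares of some beta segments differed between guides by amounts larger than the spread between libraries, while all differences stayed within 2 percentage points. At 0 h, 10 of 22 Trbv segments were called, 4 higher and 6 lower with the Foxp3 guide. At 3 h, 8 were called, 3 higher and 5 lower. DESeq2 called 3 at 0 h and 4 at 3 h. In these fits 63.1% of all genes tested were called at 0 h and 61.3% at 3 h, other genes by level. Without Foxp3 guide library 2 the 10 Trbv calls at 0 h became 6, and at 3 h the 13 calls of both loci became 7 without Foxp3 guide library 1 and 8 without control guide library 2. Of the Trbv segments 5 were called at both times, each with the same sign: Trbv2 and Trbv31 higher, Trbv19, Trbv4 and Trbv13-3 lower. The 2 times used separate libraries, but 1 fit of all 8 libraries gave both sets of calls. Whether 0 h and 3 h libraries came from the same cultures is not given in the labels.

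Trbv2 had 7.31 and 7.81% of Trbv counts in Foxp3 guide libraries, against 6.73 and 6.58% in control guide libraries, at 0 h. At 3 h it had 6.89 and 6.79% with the Foxp3 guide, against 5.11 and 4.82% with the control guide. Foxp3 guide libraries were the higher at both times without overlap, and the gap was wider at 3 h. The log2 share change was 0.18 ± 0.06 (SE, adjusted p = 0.0111) at 0 h and 0.46 ± 0.07 (adjusted p = 6.16e-06) at 3 h, and the difference between these, 0.28 ± 0.10, was called at adjusted p = 0.0208. The 0 h call was lost without Foxp3 guide library 2 (adjusted p = 0.14) or control guide library 2 (0.077).

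Trbv31, the inverted segment, had 7.81 and 6.56% in Foxp3 guide libraries, against 6.16 and 6.02% in control guide libraries, at 0 h. At 3 h it had 9.54 and 8.95% with the Foxp3 guide, against 7.98 and 8.24% with the control guide. The groups did not overlap at either time, but Foxp3 guide library 1 stood above its partner at 0 h. The log2 share changes were 0.24 ± 0.07 (SE, adjusted p = 0.00656) and 0.18 ± 0.08 (0.0403). Without Foxp3 guide library 1 the 0 h change was 0.11 (adjusted p = 0.26), and the 3 h call was lost when any library of that time was left out except Foxp3 guide library 2, or either control guide library at 0 h (adjusted p 0.051 to 0.18).

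Trbv19 was lower with the Foxp3 guide: 8.26 and 8.25%, against 9.18 and 9.33% with the control guide, at 0 h, and 7.04 and 6.92%, against 8.48 and 8.44%, at 3 h. The log2 share changes were -0.17 ± 0.05 (SE, adjusted p = 0.00866) and -0.28 ± 0.06 (0.000315), and at 0 h the call was lost without control guide library 2 (adjusted p = 0.065). Trbv4 had 4.01 and 4.05% with the Foxp3 guide, against 5.26 and 4.79% with the control guide, at 0 h, and 3.55 and 3.59%, against 4.48 and 4.73%, at 3 h. Its log2 share changes of -0.32 ± 0.07 (adjusted p = 0.000586) and -0.37 ± 0.08 (0.000559) were nearly equal at both times. Trbv13-3 had 3.03 and 2.98% with the Foxp3 guide, against 3.66 and 4.19% with the control guide, at 0 h, and 2.24 and 2.57%, against 3.17 and 4.16%, at 3 h. Its log2 share changes were -0.39 ± 0.10 (adjusted p = 0.00211) and -0.59 ± 0.12 (0.000163), with the control guide libraries the more spread, and its 0 h call was lost without control guide library 2 (adjusted p = 0.061).

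At 0 h the largest shift in percentage points was that of Trbv5, which had 6.31 and 6.21% with the Foxp3 guide, against 7.72 and 7.47% with the control guide (log2 -0.28 ± 0.06, SE, adjusted p = 0.000286). At 3 h it had 6.56 and 6.59% against 6.96 and 7.48%, also without overlap, but was not called (log2 -0.13 ± 0.07, adjusted p = 0.0887). Trbv26 had 5.76 and 6.12% at 0 h, against 5.03 and 5.13% (log2 0.22 ± 0.07, adjusted p = 0.00539; 0.074 without Foxp3 guide library 2), and Trbv20, Trbv12-2 and the pseudogene Trbv24 were also called at 0 h only. At 3 h Trbv3 had 13.3 and 12.5% with the Foxp3 guide, against 12.1 and 11.3% with the control guide. Its log2 share change of 0.14 ± 0.06 was close to the threshold (adjusted p = 0.0464) and was not called without Foxp3 guide library 1 (0.24) or control guide library 2 (0.28), or without either Foxp3 guide library of 0 h (0.053 and 0.055). Trbv14 and Trbv17 were also called at 3 h only. Whether a segment called at 1 time differs between times was tested with the interaction, in which Trbv2 was the only Trbv segment called. That call was lost without control guide library 1 of 0 h or 2 of 3 h, or Foxp3 guide library 1 of 0 h (adjusted p 0.058, 0.091 and 0.10).

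Fewer alpha than beta segments were called by share between guides, on fewer counts per segment, and whether the loci differ was not tested. At 0 h none of the 100 tested Trav segments was called by edgeR or by DESeq2, with 4 at an unadjusted p under 0.05. The largest mean shifts at 0 h were 0.64 percentage points up (Trav7n-6) and 0.62 points down (Trav4-4-dv10), neither called. Trav7n-6 had 1.45 and 1.17% with the Foxp3 guide, against 0 and 1.33% with the control guide, so its shift rested on control guide library 1. A 0 was also seen at 3 h, with 1.43 and 0% with the Foxp3 guide, against 1.02 and 1.32% with the control guide. When near-identical segments were merged, 2 of 74 units were called at 0 h, both higher with the Foxp3 guide, and when segments were summed by family, none of 19 was called, with none at an unadjusted p under 0.05.

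At 3 h 5 Trav segments were called, Trav4-2, Trav6-7-dv9 and Trav13d-3 higher and Trav4-3 and Trav3-1 lower with the Foxp3 guide. Trav4-2 had 0.494 and 0.60% of Trav counts with the Foxp3 guide, against 0.239 and 0.232% with the control guide (log2 1.23 ± 0.30, SE, adjusted p = 0.00093). At 0 h it was also the higher with the Foxp3 guide, 0.563 and 0.743% against 0.367 and 0.446%, but was not called (adjusted p = 0.0644). Trav6-7-dv9 had 3.06 and 2.73%, against 2.48 and 2.22%, at 3 h (log2 0.29 ± 0.12, adjusted p = 0.0476), and its call was lost without Foxp3 guide library 1 (0.21) or control guide library 2 (0.24) of that time, without either Foxp3 guide library of 0 h (0.054 and 0.056), and under the replicate block (0.059). Trav4-3 had 1.41 and 1.52%, against 1.78 and 2.14% (log2 -0.41 ± 0.16, adjusted p = 0.0292), and its call was lost without control guide library 2 (0.26) or either Foxp3 guide library (0.10 and 0.067) of 3 h. Trav13d-3 rested on 7.75 to 29.1 counts per library at 3 h and lost its call in 5 of the 8 fits that left out a library. DESeq2 called 1 Trav segment at 3 h. With near-identical segments merged, 4 of 74 units were called at 3 h, Trav4-2 and Trav6-6 higher and Trav4-3 and Trav3-1 lower. The unit of Trav6-7-dv9, Trav6n-7 and Trav6d-7 was not called (log2 0.12, adjusted p = 0.318), nor was that of Trav13d-3 (log2 0.24, adjusted p = 0.51). Summed by family, Trav8 was higher (log2 0.26 ± 0.10, SE, adjusted p = 0.0247) and Trav4 lower (log2 -0.18 ± 0.07, adjusted p = 0.026) with the Foxp3 guide.

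Trav3-1 stood in opposite order between guides at the 2 times, on few reads. It had 9.03 and 14 counts in Foxp3 guide libraries, against 22 and 23 in control guide libraries, at 3 h, and 20.1 and 18 counts against 4 and 4 at 0 h. Its shares were 0.140 and 0.125% against 0.311 and 0.334% at 3 h, and 0.263 and 0.248% against 0.122 and 0.105% at 0 h. The log2 share change was -1.29 ± 0.38 at 3 h (SE, adjusted p = 0.0049; 0.067 without Foxp3 guide library 2) and 1.16 ± 0.51 at 0 h (adjusted p = 0.0518), and their difference of -2.45 ± 0.63 was called (adjusted p = 0.00259). DESeq2 did not call that difference (adjusted p = 0.0697).

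The difference between the TCR effects was called for 3 of the 122 tested segments by share, Trbv2 and Trav3-1 as above and Trav12n-3, while 44.4% of all genes tested were called in the same fit. DESeq2 called none of the 3, with 1 at an unadjusted p under 0.05, and edgeR called 8 segments without control guide library 2 of 0 h and 1 without control guide library 1 of 0 h. Trav12n-3 had 1.90 and 1.72% with the Foxp3 guide at 3 h and 1.45 and 1.64% at 0 h, against 2.38 and 2.12% at 3 h and 0.762 and 1.5% at 0 h with the control guide. Its difference of -0.74 ± 0.27 (SE, adjusted p = 0.0309) was lost without control guide library 1 of 0 h (-0.37, adjusted p = 0.28), the library with the low share, and also without Foxp3 guide library 2 of either time or control guide library 1 of 3 h (0.082 to 0.11). Merged with Trav12d-3, with which it shares 98.0% of its 50-base stretches, it was not called (adjusted p = 0.395).

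Over both loci, more segments were called by share on stimulation than between guides, and segments called with both guides had the same sign, with the exception of Trav3-1. With the Foxp3 guide 17 Trav segments were higher and 14 lower at 3 h than at 0 h, and 4 Trbv were higher and 10 lower. With the control guide 12 Trav were higher and 13 lower, and 4 Trbv were higher and 4 lower. DESeq2 called 14 Trav and 8 Trbv with the Foxp3 guide and 9 Trav and 6 Trbv with the control guide. In the same fits 85.3% of all genes were called with the Foxp3 guide, and the control guide gave 81.5%. The 2 TCR effects use separate libraries within 1 fit of all 8. For Trbv, 7 segments were called with both guides, 50% of the Foxp3 guide list and 87.5% of the control guide list, all 7 with the same sign. For Trav, 16 were called with both, 51.6% and 64.0% of the lists, 15 of them with the same sign and Trav3-1 with opposite signs. Across segments the log2 share changes with the 2 guides had Spearman correlations of 0.76 over 22 Trbv and 0.60 over 100 Trav segments, which share their library's depth and are a description only.

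Trbv29 had the largest beta rise on the log2 scale with either guide. In percentage points it led with the Foxp3 guide (2.23 points), whereas Trbv31 led with the control guide (2.02 points, and 1.69 for Trbv29). With the Foxp3 guide it had 5.47 and 5.28% at 3 h and 3.02 and 3.27% at 0 h, and with the control guide 4.78 and 4.77% at 3 h and 2.99 and 3.19% at 0 h. All 3 h libraries were above all 0 h libraries, with log2 share changes of 0.77 ± 0.07 with the Foxp3 guide (SE, adjusted p = 6.01e-10) and 0.63 ± 0.09 in control guide cells (6.44e-07). Trbv31 had 9.54 and 8.95% at 3 h and 7.81 and 6.56% at 0 h with the Foxp3 guide, and 7.98 and 8.24% at 3 h and 6.16 and 6.02% at 0 h with the control guide (log2 0.36 ± 0.07 and 0.41 ± 0.08, adjusted p = 3.66e-05 and 8.09e-05). All 3 h libraries were above all 0 h libraries, and the difference between the 2 changes was not called (-0.05 ± 0.11, adjusted p = 0.718).

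Trbv16 fell most in percentage points, to 2.34 and 2.40% at 3 h against 3.96 and 4.26% at 0 h with the Foxp3 guide, and to 2.11 and 2.52% against 4.19 and 4.22% with the control guide. The log2 share changes were -0.79 ± 0.08 (SE, adjusted p = 5.27e-09) and -0.86 ± 0.10 (4.27e-08), and no library of 3 h overlapped one of 0 h. On the log2 scale the pseudogene Trbv24 fell further, on few counts. It had 16 and 26 counts at 3 h against 68 and 51 at 0 h with the Foxp3 guide, and 7 and 5 against 55 and 51 with the control guide. Its log2 share changes were -1.19 ± 0.27 and -2.33 ± 0.37 in that order (SE, adjusted p = 0.000302 and 3.45e-06). Trbv2 fell with the control guide to 5.11 and 4.82% against 6.73 and 6.58% (log2 -0.42 ± 0.07, adjusted p = 1.52e-05) and less with the Foxp3 guide, to 6.89 and 6.79% against 7.31 and 7.81% (log2 -0.15 ± 0.06, adjusted p = 0.0255; lost without Foxp3 guide library 2 of 0 h or either Foxp3 guide library of 3 h, adjusted p 0.053 to 0.24). Trbv1 rose with both guides, by 0.20 ± 0.05 with the Foxp3 guide (SE, adjusted p = 0.00141) and by 0.17 ± 0.06 with the control guide (0.0141; lost without control guide library 1 of 0 h or library 2 of 3 h, 0.072 and 0.063). Trbv13-1 had 8.28 and 7.39% at 3 h against 6.22 and 6.54% at 0 h with the control guide (log2 0.30 ± 0.07, adjusted p = 0.000785) and 6.67 and 7.31% against 6.62 and 6.77% with the Foxp3 guide (adjusted p = 0.301).

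Among alpha segments Trav10 fell with both guides, to 1.31 and 1.60% at 3 h against 2.65 and 2.59% at 0 h with the Foxp3 guide, and to 1.42 and 1.46% against 2.68 and 2.54% with the control guide. Its log2 share changes were -0.82 ± 0.13 (SE, adjusted p = 4.53e-06) and -0.85 ± 0.16 (2.46e-05), without overlap. Trav6-7-dv9 fell by 0.55 ± 0.11 (adjusted p = 0.000103) and 0.77 ± 0.13 (1.45e-05) on the log2 scale, and Trav9n-4 fell with the Foxp3 guide, to 1.73 and 2.15% against 3.34 and 3.27% (log2 -0.74 ± 0.14, adjusted p = 4.87e-05). With the control guide Trav9n-4 had 2.55 and 2.41% against 2.44 and 3.70% (log2 -0.32 ± 0.16, adjusted p = 0.0713), and merged with Trav9d-4 the fall was called with both guides (log2 -0.73 and -0.44, adjusted p = 5.5e-06 and 0.00579). Trav6-3 rose, to 2.20 and 2.54% against 1.59 and 1.54% with the Foxp3 guide and to 2.33 and 2.23% against 1.16 and 1.31% with the control guide (log2 0.61 ± 0.13 and 0.88 ± 0.17, adjusted p = 0.000184 and 4.45e-05). Trav14-2 rose with the Foxp3 guide to 2.50 and 2.19% against 1.41 and 1.52% (log2 0.66 ± 0.14, adjusted p = 8.74e-05) and with the control guide to 2.15 and 2.04% against 1.62 and 1.56% (log2 0.41 ± 0.16, adjusted p = 0.023). The difference between these rises was not called (0.25 ± 0.21, adjusted p = 0.364). Trav7-4, the largest alpha segment by counts, had 4.14 and 4.06% at 3 h against 3.23 and 3.36% at 0 h with the Foxp3 guide (log2 0.32 ± 0.11, adjusted p = 0.00951; 0.065 without library 1 of 0 h), and 3.62 and 4.37% against 3.79 and 3.23% with the control guide.

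**Figure D3:**
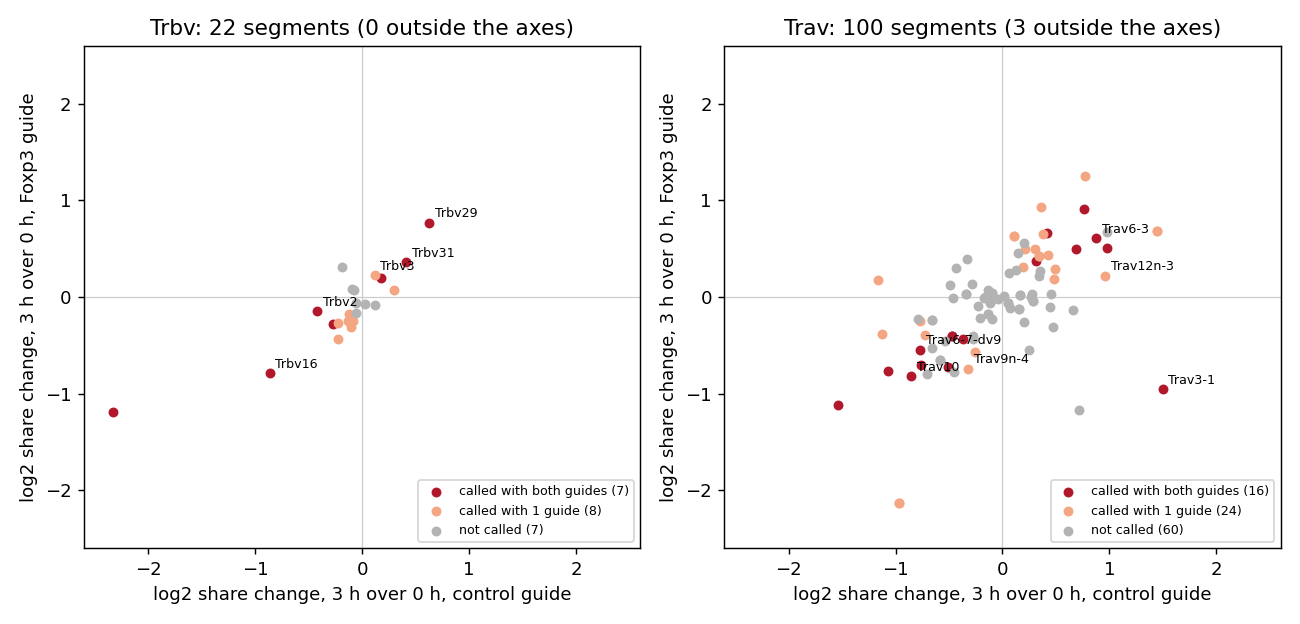
Log2 change of share, 3 h over 0 h, with the Foxp3 guide (vertical axis) against the control guide (horizontal axis) for 22 tested Trbv segments (left) and 100 tested Trav segments (right); each point is a segment, coloured by whether it was called at an adjusted p below 0.05. The 7 Trbv segments called with both guides lie in the quadrants of equal sign, as do 15 of the 16 such Trav segments, and 3 Trav segments fall outside the axes.

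Differences in expressed shares over all segments were summarised by the distance between libraries, the sum of absolute share differences divided by 2. It does not tell a change in the cells present from a change in RNA per cell. For Trbv it was 2.38 to 3.6% between libraries of the same group, where counting error alone gives 1.78 to 3.0%. Between guides it was 6.02 to 8.0% at 3 h and 5.25 to 6.08% at 0 h, and between times it was 7.52 to 9.04% with the Foxp3 guide and 7.11 to 9.20% with the control guide. The pairs between guides thus lay above every pair of the same group. For Trav the same-group distance of 6.59 to 12.1% overlapped that between guides, 7.95 to 8.88% at 3 h and 7.47 to 12.6% at 0 h, while the distance between times was higher, 13.8 to 14.9% with the Foxp3 guide and 13.9 to 16.8% with the control guide. The widest same-group Trav pair, at 12.1%, was that of the control guide at 0 h, the group with the fewest Trav counts. In that pair the counts of the near-identical Trav7-2 and Trav7d-2 also changed places. Merging near-identical segments brought the pair to 8.21%, where counting error alone gives 7.53%. The parts of depth and of such copies were not tested. With near-identical segments merged, same-group pairs lay at 5.89 to 8.21%, guides at 7.08 to 8.06% (3 h) and 6.91 to 9.51% (0 h), and times at 12.8 to 14.8%.

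**Figure D4:**
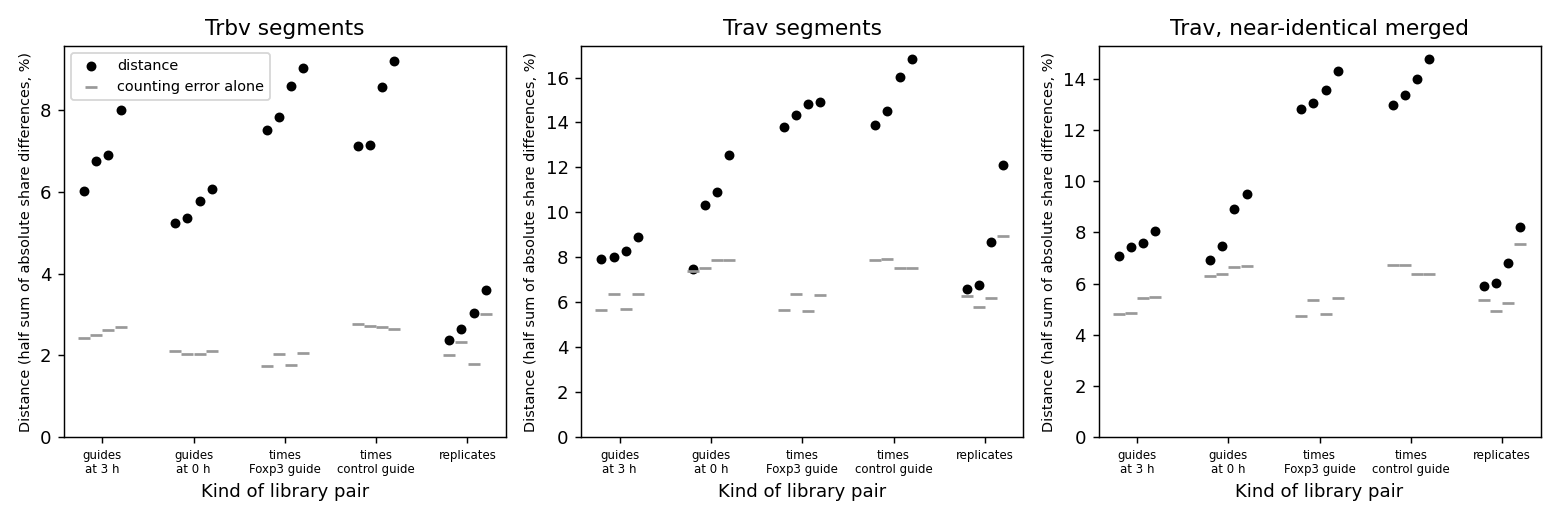
Distance between 2 libraries (the sum of absolute share differences divided by 2, %) by kind of pair, for Trbv (left), Trav (middle) and Trav with near-identical segments merged (right); black points are pairs of libraries and grey dashes the distance that counting error alone gives. For Trbv all between-guide pairs (5.25 to 8.0%) lie above the same-group pairs (2.38 to 3.6%), while for Trav they overlap.

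On stimulation the summed levels of Trav and Trbv moved in opposite directions with either guide. Summed Trav levels in CPM (counts scaled to library size with TMM) were 107 and 105 in Foxp3 guide libraries, against 73.1 and 77.8 in control guide libraries, at 0 h, and 132 and 136 against 157 and 163 at 3 h. Summed Trbv levels were 264 and 262 CPM against 228 and 235 CPM at 0 h, and 225 and 229 against 143 and 141 CPM at 3 h. With the control guide, Trav was higher and Trbv lower at 3 h than at 0 h, and with the Foxp3 guide each moved in that same direction by less. In bulk RNA, fewer cells expressing a chain and less of its RNA per cell cannot be told apart.

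The ratio of Trav to Trbv counts needs no scaling between libraries. It was 0.585 and 0.592 in Foxp3 guide libraries, against 1.10 and 1.15 in control guide libraries, at 3 h, and 0.404 and 0.402 against 0.321 and 0.332 at 0 h. The guide groups did not overlap at either time, and their order turned: the Foxp3 guide was above the control guide at 0 h and below it at 3 h. The constant genes gave the same order, with Trac over summed Trbc1 and Trbc2 counts at 0.703 and 0.703 against 1.39 and 1.36 at 3 h, and 0.410 and 0.429 against 0.365 and 0.366 at 0 h. Reads of the near-identical Trbc1 and Trbc2 can be split either way, so only their sum is used in this ratio.

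**Figure D5:**
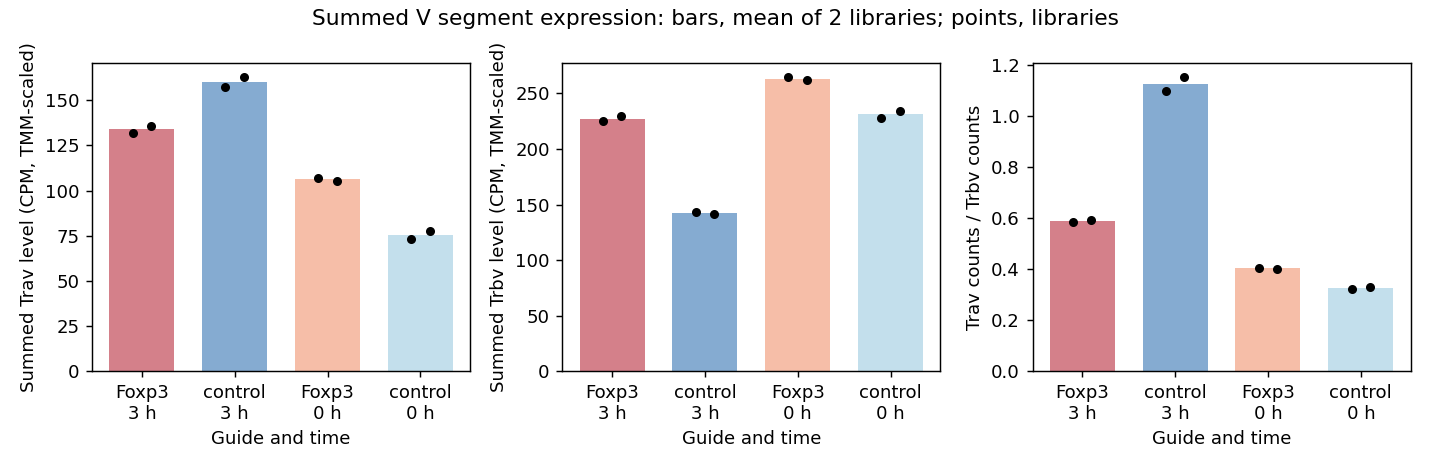
Summed level of Trav (left) and Trbv (middle) in CPM with TMM scaling, and the ratio of Trav to Trbv counts (right), by guide and time; bars are means of 2 libraries and points the libraries. At 3 h the ratio is 0.585 and 0.592 with the Foxp3 guide and 1.10 and 1.15 with the control guide.

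Single segments that were called by level mostly moved as their chain's sum did. At 0 h 37 of 100 Trav and 11 of 22 Trbv segments were higher in level with the Foxp3 guide and none was lower, against a background of 63.3% of genes called, 34.2% higher and 29.1% lower. Median log2 changes were 0.48 for Trav and 0.21 for Trbv, against 0.02 for all genes. At 3 h 1 Trav segment was higher, 15 were lower and 84 were not called, while 20 Trbv were higher and none was lower, against 61.5% of genes called, 30.7% higher and 30.8% lower, with medians of -0.25 for Trav and 0.74 for Trbv. DESeq2 called 10 Trav and 4 Trbv at 0 h and 4 Trav and 17 Trbv at 3 h. The direction of the 0 h beta change depends on the scale: summed Trbv TPM was 1836 and 1846 with the Foxp3 guide, against 2066 and 2039 with the control guide, and log2 TPM fits called 27 members at 0 h, 18 higher and 9 lower.

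On stimulation with the Foxp3 guide, 33 Trav segments were higher and 6 lower in level, and 2 Trbv were higher and 15 lower, against 85.4% of genes called, 40.8% higher and 44.5% lower. With the control guide, 72 Trav were higher and none lower, and 21 Trbv were lower and none higher, against 81.8% of genes called, 40.9% higher and 40.9% lower. The median log2 changes were 0.31 for Trav and -0.32 for Trbv with the Foxp3 guide, and 1.01 and -0.80 with the control guide. The difference between the TCR effects was called for 49 Trav segments, all lower with the Foxp3 guide, and for 17 Trbv, all higher, against 44.8% of genes called, 17.8% higher and 27.0% lower. Without Foxp3 guide library 2 of 3 h these 66 calls became 41, and DESeq2 made 18, 7 Trav and 11 Trbv. With DESeq2 the TCR effect was called for 21 Trav and 13 Trbv with the Foxp3 guide and for 58 Trav and 19 Trbv with the control guide.

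Other genes of the receptor were followed from a fixed list. Trac, the alpha constant region, changed as the Trav segments did, with log2 changes between guides of 0.47 ± 0.04 at 0 h (SE, adjusted p = 3.09e-10) and -0.15 ± 0.04 at 3 h (0.00213), and TCR effects of 0.68 (Foxp3 guide) and 1.3 (control guide). Between guides Trbc1 and Trbc2 changed as the Trbv segments did, by 0.24 and 0.29 at 0 h and 0.75 and 0.87 at 3 h on the count scale. On the TPM scale the 0 h changes were -0.07 and -0.0015. TCR effects of Trbc1 and Trbc2 were -0.54 and -0.67 with the control guide. With the Foxp3 guide they were -0.03 (adjusted p = 0.493) and -0.09 (0.0321), against a median of -0.32 for Trbv segments. The CD3 chains, which carry the receptor's signal, differed among themselves at 0 h: Cd3d and Cd3g were higher with the Foxp3 guide by 0.46 each, Cd247 (CD3 zeta) fell by 0.35 on the log2 scale, and Cd3e had a change of 0.05 ± 0.04 (adjusted p = 0.266), or -0.17 on the TPM scale. All 4 were lower at 3 h than at 0 h with either guide, with log2 changes of -0.88 to -0.35.

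Genes of V(D)J recombination had few counts. Rag2, a recombinase subunit, had 1 count in all 8 libraries together, and Ptcra, the surrogate alpha chain of thymocytes, had 0 to 6 per library. Rag1, the other subunit, had 27 and 78 counts at 3 h against 3 and 1 at 0 h with the Foxp3 guide, and 94 and 64 against 6 and 8 with the control guide. These low counts rose on stimulation with both guides (log2 4.67 ± 0.50 and 3.58 ± 0.36, SE, adjusted p = 5.01e-09 and 2.29e-09). Rag1 was lower with the Foxp3 guide at 0 h (log2 -2.30 ± 0.76, adjusted p = 0.0108) and 3 h (-1.20 ± 0.25, 0.000203). Dntt, the polymerase that adds bases without a template at V(D)J joints, had 26 and 39 counts with the Foxp3 guide, against 84 and 85 with the control guide, at 0 h, and 13 and 19 against 65 and 60 at 3 h. It was lower with the Foxp3 guide at both times (log2 -1.95 ± 0.23 and -2.54 ± 0.27, SE, adjusted p = 5.29e-08 and 1.57e-08).

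Segments of innate-like T cells stayed small. Trav11 and Trav11d, used by invariant NKT cells, share at least 99.7% of their 50-base stretches and can hardly be told apart; Trav11 was at 0 in all 8 libraries and Trav11d had 8 to 26 counts. Their summed share was 0.262 and 0.303% with the Foxp3 guide, against 0.244 and 0.446% with the control guide, at 0 h, and 0.139 and 0.233% against 0.282 and 0.160% at 3 h, with the groups overlapping. Trav1, used by MAIT cells, had 0.668 and 0.621% against 0.733 and 0.446% at 0 h, and 0.897 and 0.923% against 0.805 and 1.07% at 3 h. The Trav1 share did not differ between guides beyond the spread (adjusted p = 0.664 and 0.882). On stimulation it was called higher with the Foxp3 guide (log2 0.50 ± 0.22, SE, adjusted p = 0.0382) and with the control guide (0.69 ± 0.27, 0.0228). The difference between these changes was not called (adjusted p = 0.699). The 10 segments with dv in their symbols, which can also join to the delta chain, held 11.7 and 11.9% of Trav counts with the Foxp3 guide, against 11.7 and 12.6%, at 0 h, and 10.6 and 10.6% against 11.6 and 10.7% at 3 h.

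Markers of other T cells were measured beside these shares. Of the 6 gamma delta markers none was at 0 in all 8 libraries, and their summed level was 38.2 to 40.6 CPM with the Foxp3 guide, against 10.9 to 11.2 CPM with the control guide, at 0 h, and 7.71 to 8.07 against 5.50 to 6.59 CPM at 3 h. With the Foxp3 guide at 0 h most of it was Tcrg-C2, a gamma constant gene, at 23.1 and 25.4 CPM, against 4.29 and 4.59 CPM with the control guide. Tcrg-C2 had 1654 and 1743 counts against 192 and 225 (log2 2.45 ± 0.08, SE, adjusted p = 5.23e-18). The delta constant gene Trdc had 142 and 159 counts against 98 and 121 (log2 -0.12 ± 0.15, adjusted p = 0.517), and the delta segment Trdv4 had 0 to 4. The CD8 markers Cd8a and Cd8b1 summed to 7.70 to 7.80 CPM against 7.08 to 7.69 at 0 h and 8.10 to 8.71 against 6.23 to 6.42 at 3 h, beside 1087 to 1462 CPM of the 4 CD4 T cell markers. The 3 NKT markers summed to 1.25 to 1.3 CPM against 0.670 to 0.714 at 0 h and 0.408 to 0.523 against 0.425 to 0.555 at 3 h. Of these 3, Zbtb16 had 73 and 64 counts against 22 and 18 at 0 h (log2 1.19 ± 0.27, SE, adjusted p = 0.000562). Trav11 was at 0, and Trav11d was not called by level at 0 h (adjusted p = 0.747). The part of these markers in the share differences was not tested.

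Other lineages moved with the guide as well. Ighm, an immunoglobulin heavy chain constant gene, had 249 and 252 CPM with the Foxp3 guide, against 925 and 927 CPM with the control guide, at 0 h. Of other B cell genes measured, Ighd (log2 -2.13 ± 0.10, SE, adjusted p = 3.93e-15) and Ebf1 (-1.86 ± 0.17, 8.25e-10) were lower with the Foxp3 guide at 0 h and Cd79b was higher, with 265 and 285 counts against 118 and 117 (0.65 ± 0.15, 0.000483). Cd79a had 39 and 31 counts against 27 and 35 (-0.40 ± 0.29, adjusted p = 0.23), and Ms4a1 and Pax5 had 0 to 3 counts per library. The 5 thymocyte markers summed to 21.9 to 23.4 CPM against 37.2 to 39.3 CPM at 0 h, most of it Cd1d1, and the 4 erythroid markers to 74.5 to 76.0 against 9.29 to 9.82 CPM, with Alas2 at 0 to 1 count. The 4 NK markers summed to 3.58 to 3.88 CPM with the Foxp3 guide, against 2.02 to 2.35 CPM with the control guide, at 0 h. At 3 h their order turned, with 3.78 to 4.51 against 9.37 to 9.43 CPM. The 6 myeloid markers summed to 2.43 to 2.56 against 2.17 to 2.43 CPM at 0 h, and 4.45 to 4.59 against 1.40 to 1.51 CPM at 3 h. Of the NK markers at 0 h, Klrb1c had 79 and 68 counts against 2 and 1 (log2 4.94 ± 0.50, SE, adjusted p = 4.93e-09). Eomes had 198 and 178 against 103 and 98 (0.32 ± 0.13, adjusted p = 0.0404), and Ncr1 and Klra8 had 0 to 1 count per library. At 3 h Eomes was lower with the Foxp3 guide, with 219 and 308 counts against 425 and 396 (-1.21 ± 0.10, adjusted p = 3.14e-10). Of the myeloid markers, Adgre1 was called higher with the Foxp3 guide at 0 h (2.69 ± 0.45, adjusted p = 1.35e-05) and 3 h (2.12 ± 0.40, 6.54e-05). Itgam was called higher at 3 h only (2.26 ± 0.17, 3.34e-11). Fcer1g was called lower at 3 h only, with 11 and 15 counts against 18 and 17 (adjusted p = 0.029). The 5 regulatory T cell markers, Foxp3 among them, summed to 1374 to 1401 CPM against 3709 to 3732 CPM at 0 h and 3843 to 3868 against 7675 to 7827 CPM at 3 h. The part of these markers in the results was not tested.

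The pair Trav7-2 and Trav7d-2 shows the limit of single alpha segments. The coding sequences are identical along 336 bases, and Trav7d-2 has 1 further base, in capitals, at its annotated 3′ end. The 60 identical bases before that point, with the extra base where there is one, are shown from chr14:53391083-53391142 (Trav7-2) and chr14:52684412-52684472 (Trav7d-2), GRCm38, plus strand.
Trav7-2: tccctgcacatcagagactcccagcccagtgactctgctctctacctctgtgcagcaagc
Trav7d-2: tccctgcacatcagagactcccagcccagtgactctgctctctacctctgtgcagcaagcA
Trav7-2 had 19.4 and 187 counts with the Foxp3 guide, against 68 and 0 with the control guide, at 0 h, and 141 and 253 against 147 and 121 at 3 h. Trav7d-2 had 136 and 0 counts against 0 and 78 at 0 h, and 0 in all 3 h libraries. At 0 h each copy alone was at or near 0 in 1 library of a group and high in the other, whereas their summed share varied little: 2.03 and 2.58% against 2.08 and 2.04% at 0 h, and 2.18 and 2.27% against 2.08 and 1.76% at 3 h. Neither copy was called by share in any of the 5 comparisons.

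Share changes were also set against position along the locus. Spearman correlations between position and share change were -0.13 to 0.15 over 100 Trav segments and -0.13 to 0.17 over 21 Trbv segments on the plus strand, for the 2 guide effects, the 2 TCR effects and their difference, as a description.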

How the data were processed

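RNA was sequenced from 8 libraries (4 groups of 2) of mouse cultured nTreg cells with a stranded protocol, per the labels. Trim Galore 0.6.3, the aligner STAR 2.7.9a, the quantifier RSEM 1.3.1 and the build GRCm38 (mm10) are named in the submitters' processing notes. The authors deposited expected counts and TPM values per gene. RSEM divides reads that match several genes among them, so counts of near-identical Trav copies are estimates. The annotation release is not given in the sources used here; all 163 members matched GENCODE M21 with their version.

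Expected counts were rounded and fitted with edgeR 4.0.16 (R 4.3.3): filterByExpr (16642 genes kept), TMM scaling, robust quasi-likelihood test, 1 mean per group over all 8 libraries (4 residual degrees of freedom), Benjamini-Hochberg over all genes, called below 0.05. Level fits used TMM-scaled library sizes. Share fits replaced these, for member rows, by the library's summed Trav or Trbv counts, so a rise of one share lowers others. The steps were also run on simulated counts with changes planted in the Foxp3 guide libraries of 0 h only. That simulation held no switching of counts between near-identical Trav copies, so it does not cover this limit. Alternatives were DESeq2 1.42.0, other scalings, no filter, a replicate block, leaving out each library, families, merged near-identical Trav segments (over 50% shared 50-base stretches, chosen after seeing the data) and limma 3.58.1 on log2 values of the deposited TPM with pseudocounts 1 and 0.1. Replicate numbers did not pair libraries: same-numbered libraries had correlations of deviations of -0.076 to 0.0095 over all genes and -0.63 to 0.37 over the 122 tested members. Libraries of a group differed beyond sampling noise over all genes (chi-square per gene 4.54 to 7.47). Over single V segments, copies not merged, it was 1.09 for the control guide at 3 h, where sampling noise alone gives about 1. In the other groups it was 2.63 to 3.62. These values include switches of counts between near-identical copies, such as Trav7-2 and Trav7d-2 at 0 h, whose part was not computed. Expected richness allows for depth only, and the counting error set beside the distances covers the sampling of reads only. Effective numbers and distances were computed from observed shares and hold every difference between libraries.

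The members and gene lists were chosen with earlier results of these data known. Segments were named for the 5 highest mean shares per locus, for the largest called rises and falls in percentage points (3 per direction for guides, 2 for TCR effects and their difference, at least 20 summed counts), and for NKT and MAIT use; Trbv12-2, Trbv13-2, Trbv14, Trbv17, Trbv20, Trbv24, Trav7n-6, Trav7-2, Trav7d-2, Trav6-6, Trav6n-7, Trav6d-7, Trav9d-4 and Trav12d-3 were named after their values were seen. The summed B cell marker list is not reported here.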

Additional observations from a re-analysis of the deposited data

Results flagged for a closer look

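By share, the guide effect at 3 h differed from that at 0 h for 3 segments in the interaction test (edgeR, adjusted p below 0.05): Trav3-1 by -2.45 on the log2 scale, Trav12n-3 by -0.74 and Trbv2 by 0.28. By level, the guide effects at 3 h and 0 h differed for 49 of 100 tested Trav segments and 17 of 22 Trbv segments. All 49 were lower at 3 h than at 0 h relative to the control guide, and all 17 were higher. Of all genes tested, 44.8% were called in that level fit (17.8% higher, 27.0% lower) and 44.4% in the share fit. DESeq2 called 7 Trav and 11 Trbv by level and none by share.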

How the results depend on the processing

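Counts of called segments were compared across settings. By level, the guide effect at 0 h called 48 members, and 14 with DESeq2, 21 families, 27 with log2(TPM+1), 23 with log2(TPM+0.1) and 20 with TPM and no filter. The guide effect at 3 h called 36, and 21 with DESeq2, 69 with either TPM pseudocount and 59 with TPM and no filter. The TCR effect with the Foxp3 guide called 56, and 34 with DESeq2 and 28 families; that with the control guide called 93, and 34 families. The difference called 66, and 18 with DESeq2, 29 families and 37 at an adjusted p below 0.01. By share, the guide effect at 0 h called 10, and 3 with DESeq2 and 6 at 0.01; at 3 h 13, and 5 with DESeq2 and 6 at 0.01. The TCR effect with the Foxp3 guide called 45, and 22 with DESeq2 and 22 families; that with the control guide 33, and 15 with DESeq2, 16 families and 21 at 0.01. The difference called 3, and 5 without the filter, 0 with DESeq2 (1 at an unadjusted p under 0.05), 1 family and 1 at 0.01. Leaving out each library gave by level 36 to 48, 26 to 37, 45 to 56, 83 to 91 and 41 to 58 calls in that order of comparisons, and by share 6 to 12, 7 to 16, 31 to 45, 24 to 33 and 1 to 8.

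On the TPM scale the 0 h guide changes of Trbc1 (-0.066), Trbc2 (-0.0015) and Cd3e (-0.168) and the 3 h change of Cd3e (-0.014) were reversed. The gap in effective number between guides reversed for Trav at 0 h by family (-0.041), for Trav at 3 h with merged segments (-0.62) and for Trbv at 3 h by family (0.037). It was 0.354 for Trav at 0 h with at least 10 counts in every library and -0.109 for Trbv at 3 h from TPM. On rarefied detection it was 3.72 (Trav, 0 h), 0.067 (Trbv, 0 h) and 0.793 (Trbv, 3 h). Leaving out each library gave gaps of 1.04 to 2.32 (Trav, 0 h), -0.371 to 0.958 (Trav, 3 h), -0.28 to -0.12 (Trbv, 0 h) and -0.35 to -0.21 (Trbv, 3 h). Mean distances between guides were 4.20 (Trav, 0 h), 4.0 (Trav, 3 h) and 5.16% (Trbv, 0 h) by family and 7.54% (Trav, 3 h) merged. The family and merged settings have fewer units, and the causes of these differences were not tested. The replicate numbers do not pair the libraries; with a replicate block the level calls were 46, 34, 56, 91 and 62 and the share calls 10, 13, 44, 34 and 4. Depth limits Trav most, with 3273 counts over 128 segments in the shallowest library.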
